A study of Homo sapiens with 12 samples.

Results

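Expression of 10 genes used to recognise Mullerian lineage and serous carcinoma was compared between 4 ovarian cancer cell lines: PAX8, SOX17, MECOM, WT1, EMX2, ESR1, PGR, MSLN, MUC16 and WFDC2. They were listed by name and found by current symbol in the annotation of the array, the Affymetrix U133 Plus 2.0, which measures transcripts with groups of short probes called probe sets. The 10 markers were 10 of 19775 genes tested, and 34 of the 54675 probe sets on the array named one of them. The 12 arrays held RNA of untreated parental lines, 3 each for IGROV1, SKOV3, TOV112D and TOV21G. SKOV3 grew in DMEM and the other lines in RPMI 1640, both with 10% fetal calf serum, so medium and line cannot be told apart for SKOV3. Each line stands for a single tumour, TOV21G for a clear cell carcinoma and TOV112D for an endometrioid carcinoma. Whether a line's 3 arrays stand for separate cultures is not stated in the labels, and p-values therefore reflect the spread between arrays alone, which may be technical. In RNA from whole cultures, fewer cells that express a gene and less of its RNA per cell cannot be told apart.

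The Mullerian duct is the embryonic tube that forms the oviduct, the uterus and the upper vagina. Most epithelial ovarian carcinomas resemble one of its derivatives: serous tumours the oviduct, and endometrioid and clear cell tumours the endometrium. PAX8, SOX17, MECOM, WT1 and EMX2 are transcription factors, and pathologists stain for PAX8 to place a tumour in this lineage and for WT1 to recognise the serous type. ESR1 and PGR encode the oestrogen and progesterone receptors, transcription factors switched on by hormone that oviduct and endometrium both express. MSLN, MUC16 and WFDC2 encode mesothelin, CA125 and HE4, proteins at the cell surface or secreted from it that serve as serum markers or therapy targets in serous carcinoma. Mesothelin binds CA125.

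The arrays were first set against what is known of the lines. SMARCA4, a chromatin remodelling ATPase that TOV112D is known to lack, was at 7.11 ± 0.12 (SD, n = 3) in TOV112D and at 10.15 to 10.39 in the other lines. ARID1A was lowest in TOV21G, at 7.46 against 9.31 to 10.15. SKOV3 is known for an amplified ERBB2 receptor gene, yet ERBB2 was lowest on the arrays labelled SKOV3, at 8.14 ± 0.09 (SD, n = 3), with 8.48 to 9.01 in the other lines. The label of this group is therefore not borne out by that gene, the group is named the arrays labelled SKOV3 here, and values without it are given where they differ in call. Of 11 measured epithelial markers, IGROV1 was higher in 8 and TOV112D lower in 7 than the mean of the other lines. By the same rule, given below, 7.20% of all genes were higher in IGROV1 and 7.64% lower in TOV112D. The keratin genes KRT8 and KRT18 were at 5.29 and 5.01 in TOV112D and at 8.61 to 12.62 elsewhere. ESRP1, GRHL2 and RAB25 did not exceed 3.70 in the mean of any line.

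RefSeq promoter windows of 300 bases (250 before and 50 after an annotated start, assembly GRCh38.p14) show the DNA upstream of markers that differed between the lines beside that of markers that did not. Windows of 8 markers were read, 21 in all, because several genes have more than 1 start. None was read for SOX17 or MSLN, which also differed between the lines. The first annotated start is printed 5′ to 3′ for PAX8, MECOM and WT1, which differed by at least 2-fold between lines, and for EMX2 and WFDC2, which did not. Capitals mark each CG dinucleotide, the site of DNA methylation.
PAX8, chr2:113278872-113279171, minus strand: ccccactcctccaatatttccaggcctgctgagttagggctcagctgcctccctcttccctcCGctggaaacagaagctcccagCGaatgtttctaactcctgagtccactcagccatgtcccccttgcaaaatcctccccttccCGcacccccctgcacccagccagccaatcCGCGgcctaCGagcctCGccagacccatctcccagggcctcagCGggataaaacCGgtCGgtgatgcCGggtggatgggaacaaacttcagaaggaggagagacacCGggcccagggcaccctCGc
MECOM, chr3:169663663-169663962, minus strand: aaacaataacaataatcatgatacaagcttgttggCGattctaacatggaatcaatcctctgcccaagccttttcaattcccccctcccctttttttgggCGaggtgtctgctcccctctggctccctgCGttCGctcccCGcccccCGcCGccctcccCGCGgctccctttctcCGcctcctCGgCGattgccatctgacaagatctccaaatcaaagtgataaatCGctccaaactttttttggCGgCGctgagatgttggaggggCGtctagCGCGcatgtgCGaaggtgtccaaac
WT1, chr11:32435490-32435789, minus strand: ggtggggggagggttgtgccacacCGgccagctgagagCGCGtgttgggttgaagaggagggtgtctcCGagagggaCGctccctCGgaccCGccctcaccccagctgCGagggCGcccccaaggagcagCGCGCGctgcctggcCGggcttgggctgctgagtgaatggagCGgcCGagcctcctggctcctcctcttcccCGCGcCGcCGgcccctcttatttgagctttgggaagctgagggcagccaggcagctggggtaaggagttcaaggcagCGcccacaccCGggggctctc
EMX2, chr10:117542496-117542795, plus strand: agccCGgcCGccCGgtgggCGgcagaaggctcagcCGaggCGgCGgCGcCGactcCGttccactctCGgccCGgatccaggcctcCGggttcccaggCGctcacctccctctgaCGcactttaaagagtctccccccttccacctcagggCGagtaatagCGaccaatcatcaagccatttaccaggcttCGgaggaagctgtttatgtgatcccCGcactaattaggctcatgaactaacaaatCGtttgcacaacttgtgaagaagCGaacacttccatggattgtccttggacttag
WFDC2, chr20:45469503-45469802, plus strand: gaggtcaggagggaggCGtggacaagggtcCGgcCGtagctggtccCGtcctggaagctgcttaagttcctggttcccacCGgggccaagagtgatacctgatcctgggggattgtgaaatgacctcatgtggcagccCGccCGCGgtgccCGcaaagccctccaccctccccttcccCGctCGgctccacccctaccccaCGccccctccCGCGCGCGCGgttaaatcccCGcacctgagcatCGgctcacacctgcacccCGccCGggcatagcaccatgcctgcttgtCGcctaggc
The CG count was 13 for PAX8, 19 for MECOM and 21 for WT1, and 21 for EMX2 and 22 for WFDC2, against a median of 14 over 35116 promoters. The first windows of other markers that did not differ held fewer, with 4 for ESR1, 15 for PGR and 8 for MUC16. Of the other starts, MECOM had 12 and 19, WT1 17, 20 and 4, ESR1 4 to 17, PGR 7 and 17, and MUC16 7. The SOX core motif ATTGT, searched on both strands, occurred in the first windows of MECOM, where it occurred 2 times, EMX2, ESR1 and WFDC2, and in 27.4% of all promoters. None of the 21 windows read held the oestrogen response element (GGTCA, any 3 bases, TGACC) or the WT1 motif GCGTGGGAG on either strand. These were found in 0.057% and 0.689% of all promoters. A match is a description of these letters, and methylation was not measured.

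Levels are log2 values, so a difference of 1 is 2-fold. Each gene was read from its probe set with the highest mean over the 12 arrays. A difference was called when it reached 1 in size and its adjusted p (limma over all 19775 genes, Benjamini-Hochberg) was below 0.05. PAX8, SOX17, MECOM, WT1 and MSLN were called in at least 1 of the 6 pairs of lines, and the other 5 markers in none. Over all genes, 34.4% were called in at least 1 pair, so the share of markers, 5 of 10, rests on few genes. Among the markers' 34 probe sets 17 were so called, against 28.6% of all probe sets. Of the 60 marker and pair comparisons, 23 were called. IGROV1 and TOV112D differed in all 5 of these markers, where 18.0% of all genes were called. IGROV1 differed from TOV21G in 4 (12.6% of genes), and from the arrays labelled SKOV3 in 4 (18.8%). TOV21G differed from those arrays in 4 (17.4%) and from TOV112D in 4 (17.0%). The arrays labelled SKOV3 and TOV112D differed in 2 markers, MECOM and WT1 (16.1%).

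**Figure D1:**
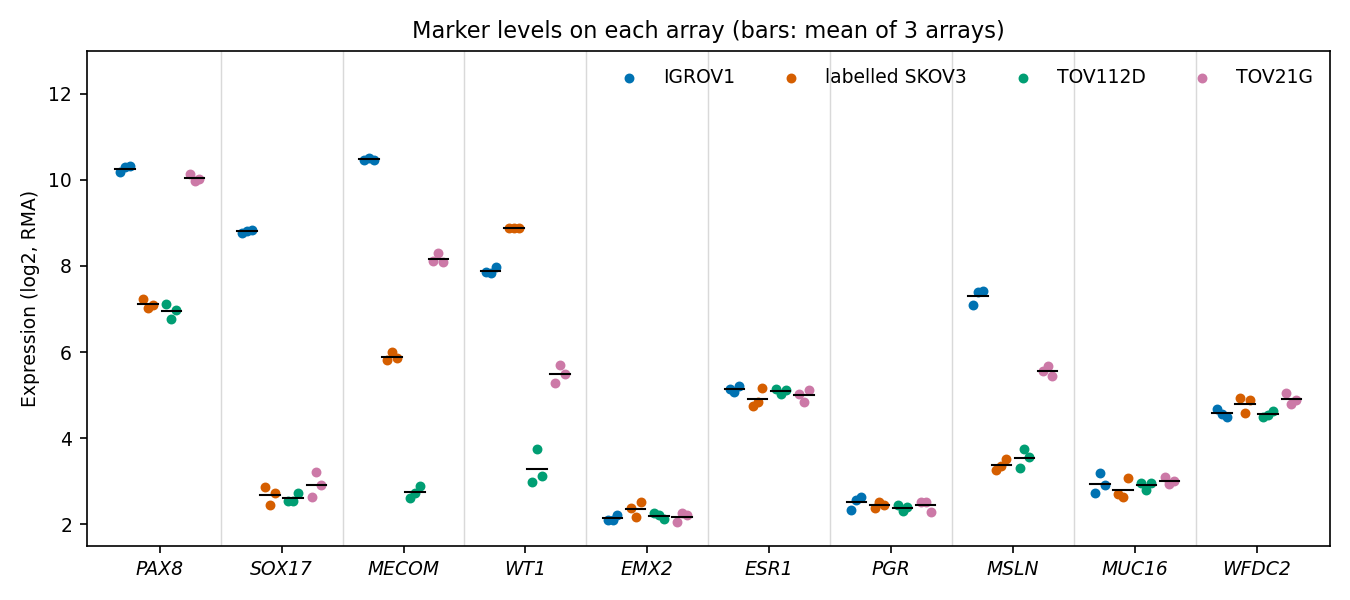
Log2 expression (y axis) of the 10 markers (x axis) on each array, by the probe set that represents the gene. Points are arrays, coloured by line, and black bars are means of 3 arrays. PAX8, SOX17, MECOM, WT1 and MSLN spread over 3.57 to 7.90 between the lowest and the highest array, while the other 5 markers stay within 0.56.

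Compared with the other 3 lines' mean, IGROV1 was the line with the most markers called higher: 5 were higher and 0 lower, where 7.20% and 7.10% of all genes were called higher and lower. Its median difference over the 10 markers was 1.07, against -0.0079 over all genes. TOV112D showed the opposite, with 0 higher (7.03% of genes) and 5 lower (7.64%) and a median of -1.04 against -0.019. The arrays labelled SKOV3 had 1 marker higher (6.53%), WT1, and 4 lower (8.01%), with a median of -0.16 against -0.023. TOV21G had PAX8 and MECOM higher (7.09%) and SOX17 and WT1 lower (5.15%), with a median of 0.065 against 0.0090. These 4 comparisons share their arrays and are not independent. A marker high in 1 line raises the mean of the others. SOX17 was thus called lower in each line but IGROV1, though those lines differed by only 0.073 to 0.31 in pairs, none called. PAX8 and MSLN were called lower both in TOV112D and on the arrays labelled SKOV3, a pair not called for either gene. A gene counted as set apart in a line when every comparison with another line called it, all higher or all lower: SOX17, MECOM and MSLN were set apart in IGROV1 (4.47% of genes) and MECOM and WT1 in TOV112D (5.38%). No marker was set apart on the arrays labelled SKOV3 (5.37%) or in TOV21G (3.33%).

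**Figure D2:**
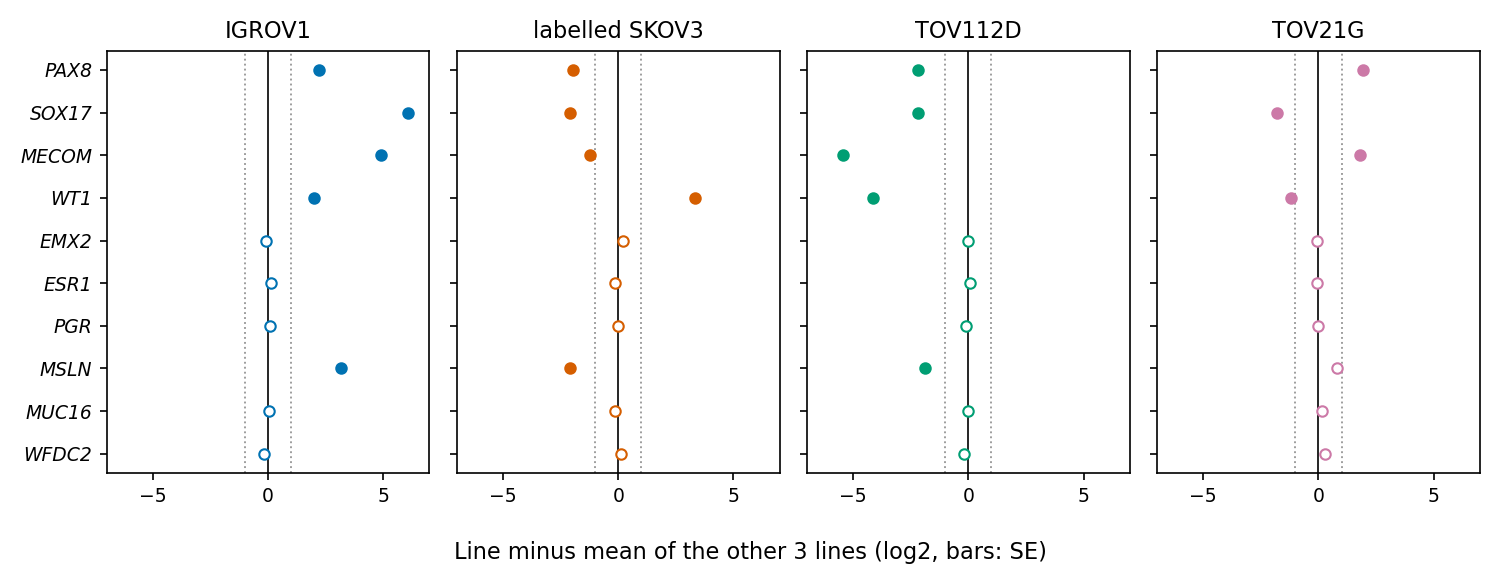
Difference between each line and the mean of the other 3 lines (x axis, log2) for each marker (y axis), 1 panel per line. Bars are standard errors, often smaller than the symbol, filled points were called, and dotted lines mark a difference of 1 in either direction. Filled points lie to the right in IGROV1 for 5 markers and to the left in TOV112D for the same 5.

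PAX8, the paired-box factor that thyroid, kidney and Mullerian epithelium depend on, divided the lines into a high and a low pair. Its arrays read 10.18, 10.29 and 10.32 in IGROV1 and 10.13, 9.97 and 10.03 in TOV21G. They read 7.24, 7.03 and 7.09 on the arrays labelled SKOV3 and 7.13, 6.76 and 6.98 in TOV112D. Every array of the first pair of lines lay above every array of the second, the low pair overlapped, and the lowest IGROV1 array was just above the highest of TOV21G. IGROV1 was 3.14 ± 0.09 (SE, 8.83-fold) above the arrays labelled SKOV3 and 3.31 ± 0.09 above TOV112D (limma, adjusted p = 2.85e-11 and 1.62e-11, n = 3 arrays per line). TOV21G was 2.92 and 3.09 above them. IGROV1 and TOV21G did not pass the test, with a difference of 0.22 (95% interval 0.012 to 0.43, adjusted p = 0.0763), and neither did the low pair, with 0.17 (-0.041 to 0.37, adjusted p = 0.177).

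All 8 PAX8 probe sets placed IGROV1 first and TOV21G second. The span between their highest and lowest line means ran from 2.45 to 6.14. The widest was that of 214528_s_at, at 8.73 in IGROV1, 7.72 in TOV21G, 3.20 on the arrays labelled SKOV3 and 2.59 in TOV112D. Of the 8, 3 also called IGROV1 above TOV21G, by 1.13 (213917_at), 1.17 (207924_x_at) and 1.01 (214528_s_at), so the step between these lines depends on the probe set. The low lines differed by less than 2-fold in every PAX8 probe set.

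SOX17, the SRY-box factor of endoderm and of oviduct and endometrial epithelium, was high in IGROV1 and in no other line. Its arrays read 8.77, 8.82 and 8.84 in IGROV1, against 2.87, 2.44 and 2.74 on the arrays labelled SKOV3, 2.54, 2.55 and 2.74 in TOV112D, and 2.62, 3.22 and 2.91 in TOV21G. The lowest IGROV1 array was far above all 9 others, whose ranges overlapped. IGROV1 exceeded TOV21G by 5.89 ± 0.14 (SE, adjusted p = 6.82e-12), the arrays labelled SKOV3 by 6.13 and TOV112D by 6.20. The low lines lie at the bottom of the scale, like EMX2, PGR and MUC16 in every line, so these sizes depend on that floor. Among the 3 low lines the differences were 0.073 to 0.31, none called. The other SOX17 probe set, 219993_at, gave 9.26 in IGROV1 and 2.29 to 2.61 elsewhere. TOV21G thus had PAX8 at nearly the level of IGROV1 and SOX17 at that of the lines low in PAX8. Among the relatives of SOX17 in its SOX subgroup, SOX7 was highest on the arrays labelled SKOV3 at 5.33, and SOX18 in TOV112D at 3.99.

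MECOM, a zinc-finger factor encoded on the long arm of chromosome 3 in a segment often amplified in ovarian carcinoma, gave 4 separate levels. Arrays read 10.47, 10.50 and 10.47 in IGROV1 and 8.11, 8.30 and 8.10 in TOV21G. They read 5.81, 5.99 and 5.87 on the arrays labelled SKOV3 and 2.60, 2.73 and 2.89 in TOV112D. No 2 lines overlapped, and all 6 pairs were called. From IGROV1 down, neighbouring lines were 2.31, 2.28 and 3.15 apart, each with an SE of 0.08 (adjusted p = 2.97e-10, 2.08e-10 and 1.16e-11), and the ends of the order were 7.74 apart. The level in TOV112D lies at the bottom of the scale, so the sizes of 3.15 and 7.74 depend on that floor and are not exact ratios.

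The other 4 MECOM probe sets did not all show these steps. 221884_at, at 10.12, 7.71, 5.68 and 2.89 in that order, was called in all 6 pairs. 208434_at was at 6.04 in IGROV1 and at 3.17, 2.80 and 2.79 in the other lines, so that it called IGROV1 against each of them and no other pair. 243277_x_at called IGROV1 above the arrays labelled SKOV3 (1.06) and TOV112D (1.10), and 215851_at, at 2.35 to 2.94, called no pair. With the mean of all 5 probe sets, the differences of TOV21G (0.53) and of the arrays labelled SKOV3 (-0.86) from the other lines were no longer of 2-fold size, while those of IGROV1 and TOV112D were still called. Which transcripts each probe set reads was not tested.

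Of 18 measured genes from the region around MECOM on chromosome 3, 10 were called in at least 1 pair. The share over all genes was 34.4%. IGROV1 had 2 higher and 4 lower, the arrays labelled SKOV3 2 and 3, TOV112D 4 and 3, and TOV21G 2 and 0. In a given line and direction, 5.15% to 8.01% of all genes were called. RPL22L1, a relative of a ribosomal protein gene, had the order of MECOM, at 12.75, 12.48, 11.84 and 10.43 from IGROV1 down to TOV112D, and was called in 3 pairs. PRKCI, named after its values were seen, had it too, from 10.89 to 9.96, with no call. Others did not. The close neighbours LRRC34 and ACTRT3 were low on the arrays labelled SKOV3, at 2.19 and 2.66, with 6.63 to 6.93 and 5.26 to 5.70 in the other lines. CLDN11, a tight junction gene, was at 12.07 in TOV112D, where MECOM was lowest, and at 2.78 to 5.54 elsewhere. Copy number was not measured. Among 11 measured partners of the MECOM protein, 4 were called in a pair, against 34.4% of all genes. SMAD3, the TGF-beta signalling factor that it binds, had the order of MECOM, from 9.45 in IGROV1 over 8.43 and 7.64 to 5.89 in TOV112D. GATA2, a blood and uterine factor, was instead highest in TOV112D at 9.38, followed by 8.33 in IGROV1, 6.87 in TOV21G and 5.85 on the arrays labelled SKOV3. KAT2B, an acetyltransferase, was highest in TOV21G at 8.58 and lowest on those arrays at 3.54, with 7.09 in TOV112D and 6.46 in IGROV1.

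WT1, the zinc-finger factor of kidney, gonad and mesothelium, did not follow PAX8. Arrays read 8.88, 8.89 and 8.89 on the arrays labelled SKOV3 and 7.86, 7.83 and 7.99 in IGROV1. They read 5.27, 5.71 and 5.49 in TOV21G and 2.99, 3.74 and 3.12 in TOV112D. No 2 lines overlapped, and 5 of the 6 pairs were called, with TOV112D 2.20 ± 0.16 (SE) below TOV21G and 5.60 below the arrays labelled SKOV3 (adjusted p = 1.63e-07 and 2.79e-11). The step from IGROV1 up to those arrays was 0.998 (95% interval 0.64 to 1.36, adjusted p = 0.0002), just under the size needed for a call, and 3 alternatives put it at 1.02 to 1.08. The other WT1 probe set, 216953_s_at, kept the order at 4.85, 4.12, 3.17 and 2.85 and called 3 pairs. WT1 in TOV21G was 1.20 below the mean of the other lines, but -0.098 from the mean of IGROV1 and TOV112D without the arrays labelled SKOV3 (adjusted p = 0.653), and -0.98 with the mean of both probe sets.

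EMX2, a homeobox factor needed for the urogenital tract, lay at the bottom of the scale. Its single probe set read 2.10, 2.10 and 2.22 in IGROV1, 2.38, 2.16 and 2.52 on the arrays labelled SKOV3, 2.26, 2.22 and 2.12 in TOV112D, and 2.05, 2.25 and 2.21 in TOV21G. The ranges of the 4 lines overlapped, no pair was called, and the 95% intervals allowed differences of at most 0.41. At such values the array cannot separate a low level from none.

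**Figure D3:**
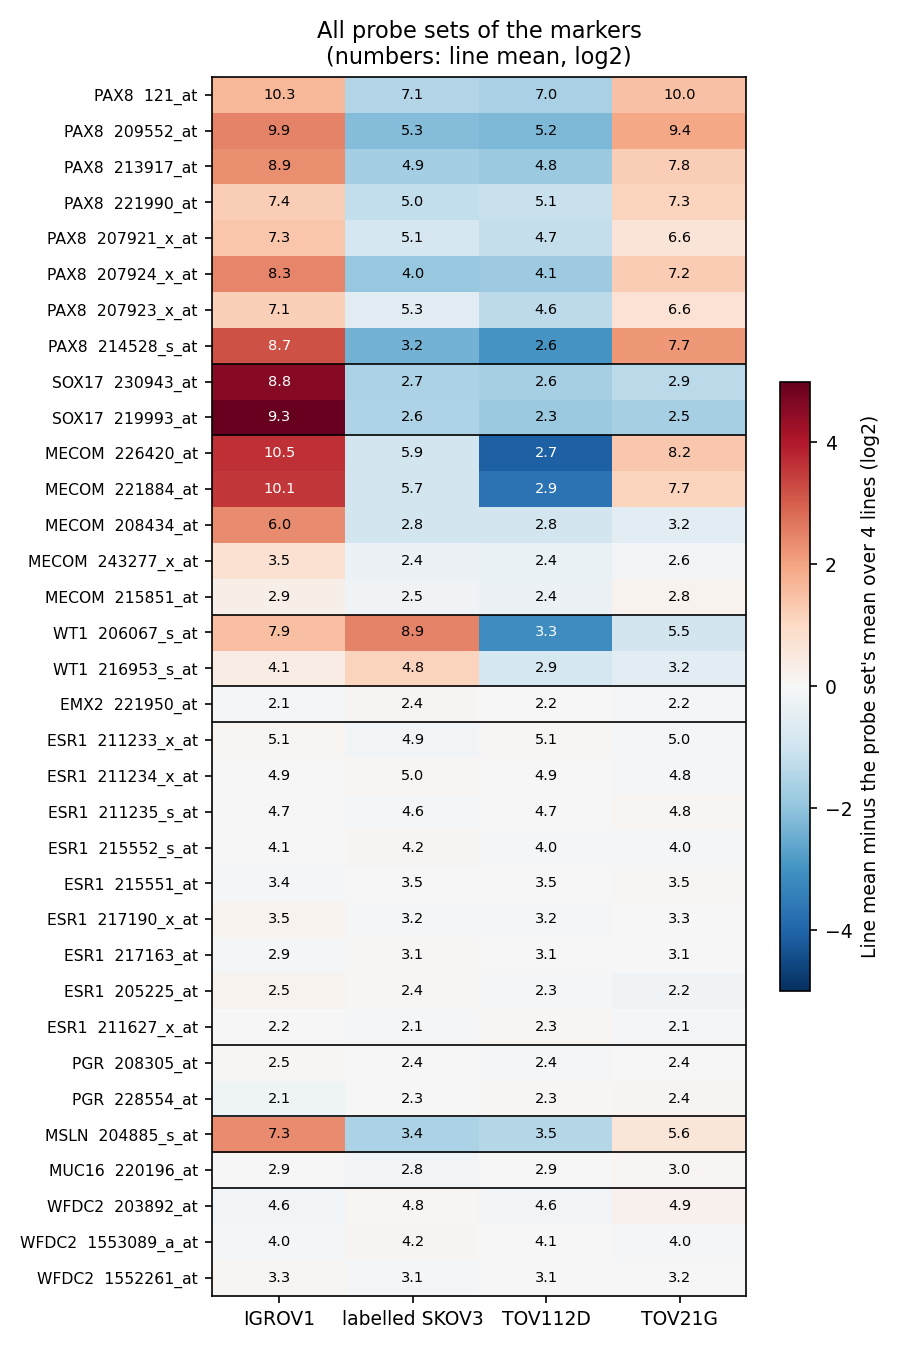
Line means (numbers, log2) of all 34 probe sets of the 10 markers (rows) in the 4 lines (columns). Colour gives each line's difference from the mean of the probe set over the lines, red for higher and blue for lower, and black lines separate the genes. The 8 PAX8 rows are red in IGROV1 and TOV21G, both SOX17 rows in IGROV1, and the rows of EMX2, ESR1, PGR, MUC16 and WFDC2 are pale.

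Other factors that form and pattern the Mullerian duct were counted from a list of 20, of which 16 were measured and 9 called in at least 1 pair, against 34.4% of all genes. IGROV1 had 4 of the 16 higher and 3 lower than the other lines (7.20% and 7.10% of all genes). The arrays labelled SKOV3 had 2 and 3 (6.53% and 8.01%), TOV112D 3 and 3 (7.03% and 7.64%), and TOV21G 1 and 3 (7.09% and 5.15%). The median differences were -0.078 to 0.017, against -0.023 to 0.0090 over all genes. PAX2, the closest relative of PAX8 and the other paired-box factor of the duct, repeated the PAX8 division. It read 8.40, 8.37 and 8.33 in IGROV1 and 8.18, 7.88 and 7.93 in TOV21G, but 3.23 to 3.72 on the 6 arrays of the other 2 lines. IGROV1 was 4.87 ± 0.12 (SE) above the arrays labelled SKOV3 and 4.80 above TOV112D (adjusted p = 4.43e-12 and 4.42e-12). PAX3 ran otherwise, from 3.12 in IGROV1 and 4.56 in TOV21G to 5.85 in TOV112D and 7.74 on the arrays labelled SKOV3.

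WNT7A, the signal by which the duct epithelium patterns its stroma, was high where SOX17 was: 8.38, 8.67 and 8.22 in IGROV1 and 4.14 to 4.84 on the other 9 arrays. FOXJ1, the factor of ciliated oviduct cells, was also highest in IGROV1, at 6.79 against 4.79 to 5.40. DACH1 was highest in the 2 lines with high WT1, at 9.23 on the arrays labelled SKOV3 and 7.29 in IGROV1 against 4.78 in TOV112D and 4.20 in TOV21G. MSX1, a homeobox factor of the uterus, was nearly the reverse of PAX8. It was at 10.81 in TOV112D and 9.32 on the arrays labelled SKOV3, and at 4.52 in IGROV1 and 4.32 in TOV21G. MSX2 was not: it was at 11.2 in TOV112D, 9.78 in TOV21G, 8.89 on the arrays labelled SKOV3 and 8.41 in IGROV1. The antisense transcripts beside PAX8, WT1 and EMX2 were called in no pair: PAX8-AS1 was at 3.76 to 4.27, WT1-AS at 3.51 to 4.30 and EMX2OS at 4.30 to 4.42. HOXA11-AS was higher in TOV21G, at 4.48 against 3.05 to 3.36.

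**Figure D4:**
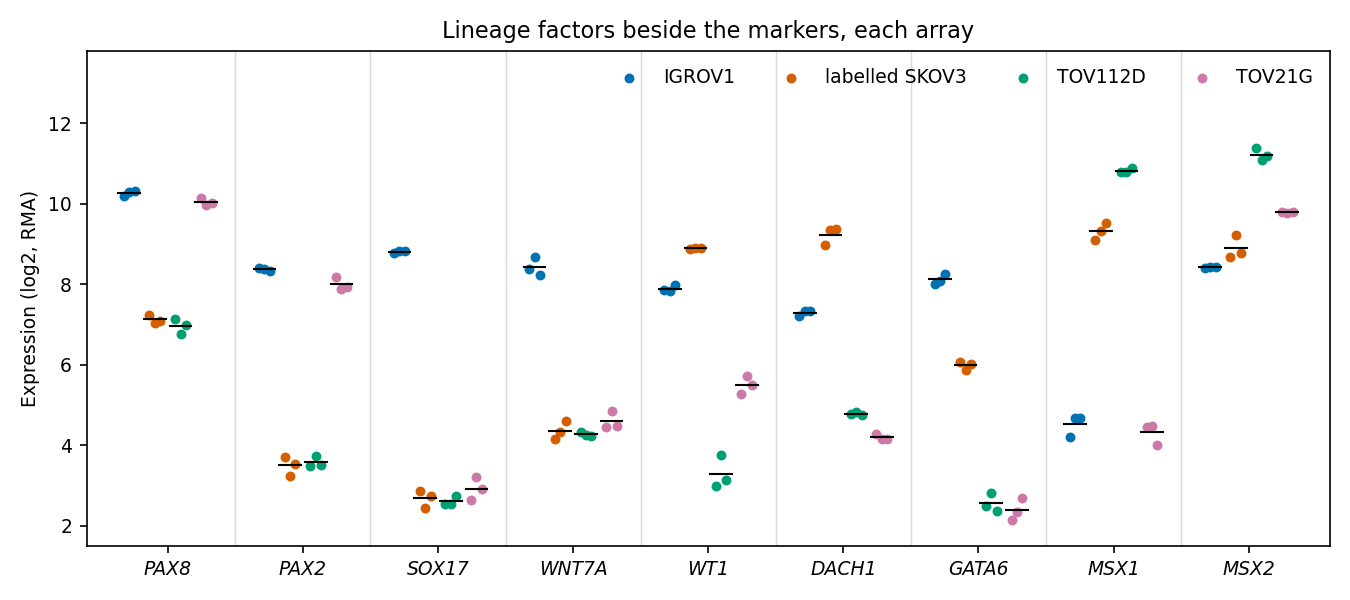
Log2 expression (y axis) on each array of PAX8, SOX17 and WT1 beside PAX2, WNT7A, DACH1, GATA6, MSX1 and MSX2 (x axis). Points are arrays, coloured by line, and black bars are means of 3 arrays. PAX2 divides the lines as PAX8 does, WNT7A is high in IGROV1 as SOX17 is, and MSX1 is high in TOV112D and the arrays labelled SKOV3.

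The hormone receptors showed no line with a raised level. ESR1 was read by 9 probe sets, none called in any pair, and the widest span of line means among them was 0.34. Its representative probe set, 211233_x_at, ends in _x_at, which marks probes open to cross-hybridisation. It read 5.13, 5.08 and 5.22 in IGROV1, 4.73, 4.84 and 5.17 on the arrays labelled SKOV3, 5.15, 5.02 and 5.12 in TOV112D, and 5.01, 4.84 and 5.13 in TOV21G. The ranges of all 4 lines overlapped, and no pair could differ by more than 0.46 within its 95% interval. The probe set 205225_at read 2.02 to 2.66 over the 12 arrays. In it, IGROV1 was 0.34 above TOV21G (limma, 95% interval 0.12 to 0.56, adjusted p = 0.0167), below the size of a call. PGR, itself an oestrogen-induced gene, was at 2.28 to 2.63 and at 1.99 to 2.60 in its 2 probe sets, also with no call. The 95% intervals of the first, 208305_at, reached 0.33 at most. In the other, 228554_at, TOV21G was 0.35 above IGROV1 (95% interval 0.11 to 0.59, adjusted p = 0.0242), below the size of a call.

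Of 20 measured genes known to respond to oestrogen, 12 were called in at least 1 pair, where 34.4% of all genes were. Against the mean of the others, where 5.15% to 8.01% of all genes were called in a given line and direction, IGROV1 had 5 higher and 1 lower, the arrays labelled SKOV3 3 and 3, TOV112D 1 and 5, and TOV21G 3 and 3. GREB1, a cofactor of the receptor, read 5.99, 6.01 and 5.95 in IGROV1 and 7.06, 7.01 and 6.86 on the arrays labelled SKOV3, but 2.47 to 2.93 on the arrays of TOV112D and TOV21G. The arrays labelled SKOV3 lay 3.15 ± 0.07 (SE) above the mean of the other lines (adjusted p = 2.55e-12). CA12 and KRT19 were highest in IGROV1, at 10.69 and 11.84, and STC2 on the arrays labelled SKOV3, at 7.25. MYB was highest in TOV112D at 6.77. TFF1 and TFF3, classical targets named here after their values were seen, were at 3.45 to 3.65 and 4.73 to 4.90.

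Among 13 measured steroid receptors and cofactors, 7 were called in at least 1 pair, against 34.4% of all genes, and 6 in none. Among those 6 was the receptor gene ESR2, at 4.45 to 4.69, named after its values were seen. TOV112D had 4 higher and 1 lower (7.03% and 7.64% of all genes), and IGROV1 1 and 3 (7.20% and 7.10%). The arrays labelled SKOV3 had 1 and 1 (6.53% and 8.01%), and TOV21G 0 and 0 (7.09% and 5.15%). The lower one in TOV112D was NRIP1, a repressor recruited by hormone-bound receptors. It was at 10.34 in IGROV1, 10.04 on the arrays labelled SKOV3 and 9.63 in TOV21G, but at 5.36, 5.67 and 5.60 on the arrays of TOV112D. GATA3, which acts with ESR1 in breast epithelium, ran from 8.29 in TOV112D to 3.47 in IGROV1, with 6.09 on the arrays labelled SKOV3 and 6.00 in TOV21G.

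**Figure D5:**
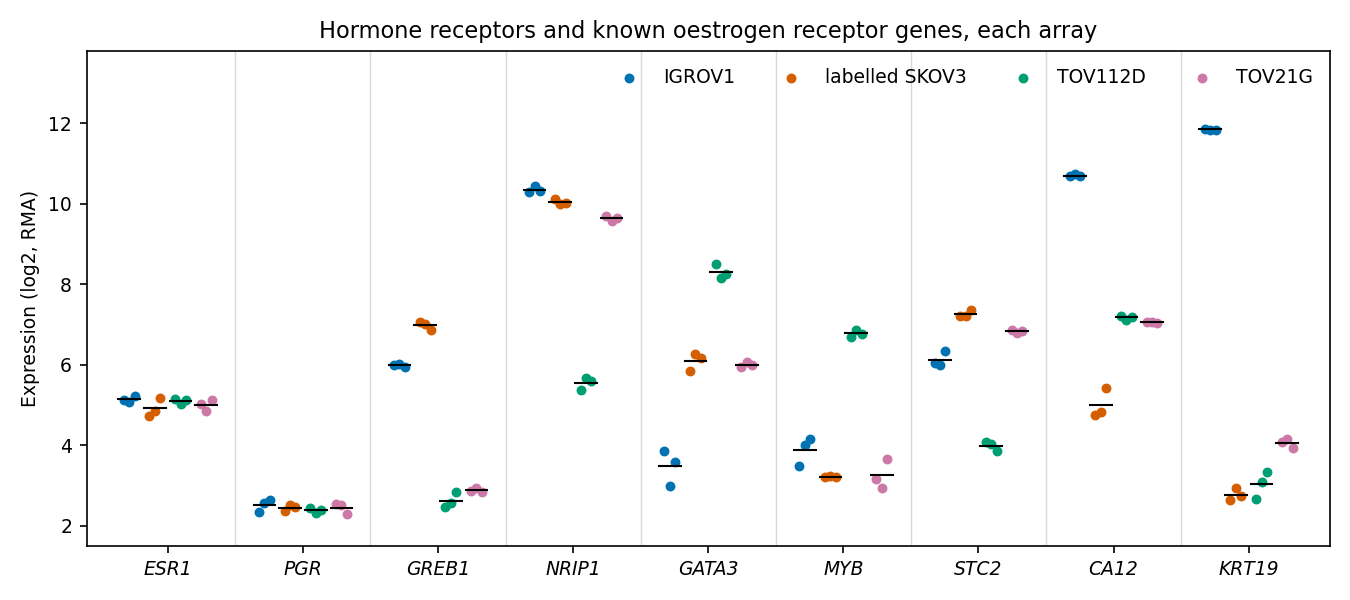
Log2 expression (y axis) on each array of ESR1 and PGR beside cofactors and known targets of the oestrogen receptor (x axis). Points are arrays, coloured by line, and black bars are means of 3 arrays. ESR1 and PGR are level across the 4 lines, whereas GREB1, NRIP1, GATA3, MYB, STC2, CA12 and KRT19 differ.

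MSLN, the gene of mesothelin, was high in IGROV1 and intermediate in TOV21G. Arrays read 7.08, 7.40 and 7.42 in IGROV1 and 5.55, 5.67 and 5.45 in TOV21G, against 3.26, 3.35 and 3.52 on the arrays labelled SKOV3 and 3.30, 3.74 and 3.56 in TOV112D. The 2 low lines overlapped and differed by 0.15 (95% interval -0.12 to 0.42, adjusted p = 0.355), and no other pair overlapped. IGROV1 was 1.75 ± 0.12 (SE, 3.36-fold) above TOV21G (adjusted p = 1.42e-07), and TOV21G was 2.18 above the arrays labelled SKOV3 and 2.02 above TOV112D (1.21e-08 and 2.41e-08). IGROV1 and TOV21G were the upper lines for PAX8 too, but here the step between them was called. Against the mean of the others TOV21G was 0.82 higher, under 2-fold.

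MUC16, the gene of CA125, to which mesothelin binds, showed no such order. Its probe set read 2.72, 3.18 and 2.92 in IGROV1, 2.69, 2.62 and 3.06 on the arrays labelled SKOV3, 2.95, 2.79 and 2.96 in TOV112D, and 3.10, 2.94 and 3.0 in TOV21G. The 4 ranges overlapped. The largest difference, 0.22 between TOV21G and the arrays labelled SKOV3, did not pass the test (adjusted p = 0.185), and its 95% interval ended at 0.50.

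WFDC2, the gene of the secreted protease inhibitor HE4, was nearly level too. It read 4.67, 4.57 and 4.49 in IGROV1, 4.93, 4.59 and 4.88 on the arrays labelled SKOV3, 4.50, 4.54 and 4.64 in TOV112D, and 5.04, 4.79 and 4.89 in TOV21G. The arrays of TOV21G lay above all those of IGROV1 and TOV112D, by 0.33 ± 0.10 (SE) and 0.35 ± 0.10 in the mean (adjusted p = 0.0129 and 0.00903), differences of 1.26-fold and 1.27-fold that are below the size of a call. Its other probe sets, 1553089_a_at and 1552261_at, had spans of 0.24 and 0.19 and did not repeat that order. Over the 5 markers never called, none of their 16 probe sets was called in any pair. Of their 30 gene comparisons, 0 reached 2-fold, and the p from limma was below 0.05 in 5 before adjustment and in 2 after it.

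Of 16 measured genes of the whey acidic protein family of WFDC2 and its gene cluster, 14 were called in no pair. The other 2, SLPI and PI3, were called in at least 1 pair, a smaller share than the 34.4% of all genes. SLPI, a secreted inhibitor of leukocyte elastase, read 10.84, 10.88 and 10.82 in IGROV1 and 4.09 to 5.21 on the other 9 arrays, 6.13 ± 0.17 (SE) above the mean of the other lines (adjusted p = 2.02e-11). PI3, also an elastase inhibitor, was at 6.63 in IGROV1 and 3.93 to 4.44 elsewhere.

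Other antigens of serous ovarian carcinoma were taken from a list of 25, of which 24 were measured. IGROV1 had 10 higher and 1 lower (7.20% and 7.10% of all genes), and the arrays labelled SKOV3 2 and 9 (6.53% and 8.01%). TOV112D had 0 and 10 (7.03% and 7.64%), and TOV21G 3 and 3 (7.09% and 5.15%). Of the 24, 14 were called in at least 1 pair, against 34.4% of all genes, and 10 in none. Among those 10 were FOLR1, at 7.66 to 7.80, and CLDN4, at 4.26 to 5.18, both named after their values were seen. The median difference was 0.72 in IGROV1 and -0.63 in TOV112D, against -0.0079 and -0.019 over all genes. SLC34A2, a phosphate transporter and antibody target, had the same upper lines as MSLN: 11.06, 10.74 and 10.93 in IGROV1, 8.46, 8.28 and 8.53 in TOV21G, and 3.10 to 3.92 in the other 2 lines. CD24 and ELF3 were high in the lines with high PAX8. CD24 was at 12.61 in IGROV1 and 13.20 in TOV21G against 7.94 and 7.38, and ELF3 at 8.31 and 8.10 against 4.60 and 4.35. The claudin genes CLDN3 and CLDN16 were highest in IGROV1, at 11.02 and 9.05 against 5.77 to 6.80 and 4.50 to 5.51. LYPD1 was high on the arrays labelled SKOV3, at 8.79 against 4.0 to 4.45.

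Epithelial and stromal genes also differed between the lines, and their part in the differences of the markers was not tested. The mean of the 11 epithelial markers was 8.17 to 8.23 on the arrays of IGROV1, 5.52 to 5.69 in TOV21G, 5.06 to 5.13 on the arrays labelled SKOV3 and 3.93 to 4.10 in TOV112D, the same order as MECOM. CDH1, the gene of E-cadherin, was at 10.93 in IGROV1 and at 2.95 to 4.20 elsewhere. All 12 stromal markers were measured, and the mean over them ran from 4.14 to 4.18 in IGROV1 and 4.86 to 4.96 in TOV21G to 6.68 to 6.76 on the arrays labelled SKOV3 and 7.68 to 7.84 in TOV112D. IGROV1 had 0 of the 12 higher and 10 lower, TOV21G 2 and 8, the arrays labelled SKOV3 5 and 4, and TOV112D 6 and 3. Of all genes, 5.15% to 8.01% were called in a given line and direction. COL3A1 and LUM, at 13.27 and 11.50 in TOV112D, were at 2.01 to 2.77 in the other lines. Not all stromal genes were highest there. COL1A1 and TAGLN were highest on the arrays labelled SKOV3, at 11.63 and 11.73, and COL1A2 in TOV21G, at 7.90. Of 11 leukocyte and endothelial markers 4 were called in a pair and 7 in none, a share near the 34.4% of all genes called in a pair. PTPRC, the common leukocyte antigen, was higher in TOV112D, at 4.58 against 2.79 to 2.95. The endothelial genes KDR and CDH5 were higher on the arrays labelled SKOV3, at 7.41 against 2.80 to 3.11 and at 5.81 against 2.97 to 4.67, and PECAM1 was higher in IGROV1, at 6.33 against 4.97 to 5.14. The endothelial genes VWF and TEK, named after their values were seen, were called in no pair, at 4.31 to 4.41 and 4.47 to 4.84.

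Because WT1 and MSLN also mark mesothelium, 14 mesothelial markers were counted. IGROV1 had 3 higher and 1 lower, the arrays labelled SKOV3 2 and 1, TOV112D 0 and 3, and TOV21G 2 and 1. Over all genes, 5.15% to 8.01% were called in a given line and direction. The median differences were -0.13 to -0.062, against -0.023 to 0.0090 over all genes. Of the 14, 6 were called in at least 1 pair, against 34.4% of all genes, and 8 in none. GATA6, a factor of mesoderm and endoderm, was high in the 2 lines with high WT1, at 8.12 in IGROV1 and 5.98 on the arrays labelled SKOV3 against 2.56 in TOV112D and 2.38 in TOV21G. LRRN4 was higher in IGROV1, at 8.16 against 3.98 to 4.45. CPE, a peptide-processing enzyme gene, was highest on the arrays labelled SKOV3 at 10.41 and lowest in TOV112D at 6.74, with 7.71 in IGROV1 and 9.32 in TOV21G, while CALB2 and KRT5, both named after their values were seen, were at 4.18 to 4.97 and 4.07 to 4.36 and called in no pair. Of 14 markers of clear cell carcinoma, 8 were higher and 2 lower in TOV21G, 6 and 4 in IGROV1, 4 and 4 on the arrays labelled SKOV3, and 1 and 7 in TOV112D. The share of all genes called was again 5.15% to 8.01% for a given line and direction. At least 1 pair called 11 of these 14, against 34.4% of all genes, and 3 were called in none. FXYD2, a subunit of the sodium pump, read 11.61, 11.61 and 11.60 in TOV21G and 11.01, 11.14 and 11.04 in IGROV1, the lines with high PAX8, and 3.99 to 4.48 on the arrays of the others. ANXA4 had the same upper lines, at 12.62 in IGROV1 and 12.05 in TOV21G. Others did not. TFPI2, CRYAB and GPX3 were called higher on the arrays labelled SKOV3 and in TOV21G, and lower in IGROV1 and TOV112D. DPP4 and F3 were highest in IGROV1, at 10.05 and 9.71, and called lower in TOV21G. SPP1 was low in TOV112D alone, at 2.87 against 12.73 to 13.60.

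The genes whose pattern was nearest to each varying marker were found by the root mean square difference over the 12 arrays, after each gene was centred on its own mean. For PAX8, which itself varied by 1.56 about its mean on that measure, they were C12orf75 (0.18), the sulphate transporter gene SLC26A2 (0.20) and CCDC198 (0.21). SLC26A2 was at 11.48 in IGROV1 and 11.51 in TOV21G against 8.68 and 8.65. For SOX17 they were SFTA2 (0.22), FLG (0.24) and the germ-cell cyclin gene CCNA1 (0.26), each at 8.46 to 8.89 in IGROV1 and at 2.27 to 2.998 elsewhere. MECOM was nearest to IFITM1 (0.41), the matrix protease gene MMP7 (0.42) and the basement membrane gene NID2 (0.50). WT1 was nearest to SETBP1 (0.33), TRIB2 (0.41) and the keratin gene KRT8 (0.46), and MSLN to LOC107984282 (0.18), RNASET2 (0.23) and DTX3L (0.24). With 4 lines, many genes share an order, and likeness of pattern is a description.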

How the data were processed

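The log2 values of 54675 probe sets were deposited by the authors as 1 table, produced with affy and RMA per the submitters' processing notes (versions not given in the sources used here). RMA normalizes arrays to a common distribution, so differences in total RNA cannot be seen, and no detection calls were used. Array medians were 4.40 to 4.47. Probe sets were named from the platform annotation: 41097 had 1 gene, 1801 several and 11777 are unnamed here. Without controls and probe sets of several genes, 41091 probe sets gave 19775 genes.

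A limma fit (version 3.58.1, R 4.3.3) gave each line its mean from the 12 arrays, leaving 8 residual degrees of freedom, with eBayes moderation and Benjamini-Hochberg adjustment per contrast. All 54613 non-control probe sets were fitted the same way. The code was tested on simulated data. Named genes were all markers, in each list the called members with the largest differences (up to 4 for a line), all members of lists with 6 or fewer measured, the 3 nearest patterns, and the identity and epithelial genes. CD24, KRT8, KRT18, CLDN3, FXYD2, CA12, SOX18 and MSX2 are read by probe sets ending in _x_at. The members and lists were chosen with earlier results of these data known. Alternatives were averaging the probe sets of each gene, dropping _x_at probe sets, dim genes, each array or the arrays labelled SKOV3, centring, quantile normalization, a trended prior, the replicate number as a block and the 6 arrays of a pair.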

Additional observations from a re-analysis of the deposited data

How the results depend on the processing

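No called marker difference turned its sign under any alternative. Of 2020 marker differences recomputed, 2013 kept their side of the threshold, 4 lost a call and 3 gained one, and 51 uncalled differences changed sign without being called. With the mean of all probe sets, 1 marker was higher and 1 lower in TOV21G, and 1 was lower without the arrays labelled SKOV3. MECOM lost its calls in TOV21G (0.53) and on the arrays labelled SKOV3 (-0.86) with that mean. The second loss lowered the count of markers lower on those arrays, which was 4 as reported. WT1 lost its call in TOV21G (-0.98, and -0.098 without the arrays labelled SKOV3). The mean takes in MECOM and WT1 probe sets with smaller spans, and WT1 was highest in the arrays left out; no other cause was tested. The WT1 difference of IGROV1 from the arrays labelled SKOV3 was -1.02 with centred arrays, -1.08 with quantile normalization and -1.05 without IGROV1 replicate 3. Leaving out any array changed no count of markers. Centring moved the median of all genes by -0.13 in TOV21G against the others and by 0.10 to 0.16 in each pair with TOV21G, and PAX8 then differed between IGROV1 and TOV21G by 0.36, against a median of 0.13. With the replicate number as a block, 5 markers were higher in IGROV1 and 5 lower in TOV112D, as without it, and no count of markers changed. The numbers do not pair the arrays: of 18 pairs with the same number, 2 had deviations correlated above 0.1 (range -0.0998 to 0.13). Signals near the bottom of the scale limit what can be said of low lines.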
